A study of Macaca mulatta with 2 samples.

Results

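Laminins, the integrins that bind them and other matrix, and the proteins that tie basement membranes to cells were examined in bulk RNA-seq of macaque (*Macaca mulatta*) optic nerve. The members were the 43 genes among 16684 listed genes whose symbol is that of a laminin chain, an integrin subunit, a nidogen, perlecan, agrin or dystroglycan. They comprised 5 laminin alpha chains, 4 beta chains, 3 gamma chains, 18 integrin alpha subunits, 8 integrin beta subunits and 5 linkers. The nerves were wild-type and untreated, and 2 libraries, named Rep1 and Rep2, represent this 1 condition. The study's methods give a 12-year-old male as the source, whereas the deposited design speaks of 2 animals, and nothing else tells whether both libraries came from the same animal. The tissue was collected after death and donated as discarded tissue, and a bulk nerve holds glia, axons, vessels and meninges together, so that fewer cells of a type and less RNA per cell cannot be told apart.

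A basement membrane is a thin sheet of matrix laid down on the surface of vessels, meninges, Schwann cells and the outer glial endfeet of the nerve. Each laminin is a trimer of an alpha, a beta and a gamma chain, and the alpha chain carries the globular domains that cells bind. Nidogens, perlecan and agrin join laminin to type IV collagen and to heparan sulfate. Integrins, which are dimers of an alpha and a beta subunit, and dystroglycan are the receptors through which cells hold on to this sheet and, inside the cell, to actin.

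Expression is given in TPM, the number of transcripts of a gene out of 1000000 transcripts of the library, so values can be compared between genes within a library. With 2 libraries of 1 condition there is a spread, which may be technical, but no contrast to test. Rep1 stood apart from Rep2. It was the shallower library, because a single read added 17.2 times as many TPM there. The number of genes listed at 0 was 6425 in Rep1 and 2082 in Rep2. The 15 photoreceptor genes that were examined summed to 4250 TPM in Rep1 against 32.5 TPM in Rep2. By contrast, all 8 oligodendrocyte and all 8 astrocyte markers were above 0 in both libraries and were lower in Rep1 as deposited. Of the oligodendrocyte and astrocyte markers, 100% and 75% were at least 2-fold lower, beside 58.7% of all genes whose mean reached 1 TPM. With Rep1 scaled to Rep2 (median of ratios, see *DAG1* below), these shares were 87.5% and 50%, beside 40.2%. The astrocyte markers *SLC1A3*, *FGFR3* and *SLC1A2* were then higher in Rep1, by 0.03, 0.14 and 0.01 (log2). The smallest number of reads that a Rep1 value could rest on, which is a lower bound and can be far below the true number, was 1 for 11 and 2 for 3 of the 27 members above 0 in both libraries, *LAMB2*, *LAMA2* and *ITGB2* among them. Such bounds are printed below for *LAMC3*, *DAG1*, *ITGAX* and *ITGAL*.

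The leading laminin chains were *LAMA4*, *LAMB2* and *LAMC1*, and the leading receptor subunit was *ITGB1*, in both libraries. Of the 43 members, 42 were above 0 in Rep2 and 27 in Rep1, and *LAMB4* was listed at 0 in both. At least 10 TPM was reached by 24 members in Rep2, by 9 in Rep1 and by 20 on the mean. All members together took 0.168% of the TPM of Rep2 and 0.0522% of Rep1. The median member ranked at percentile 48.8 among 14693 genes that either library detected, and *ITGB1* alone was in the top 10% of them. Across the 27 members above 0 in both libraries, Pearson r between the libraries was 0.651 on the log2(TPM + 1) scale and Spearman rho was 0.714, which describe genes that share the same pair of libraries.

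**Figure D1:**
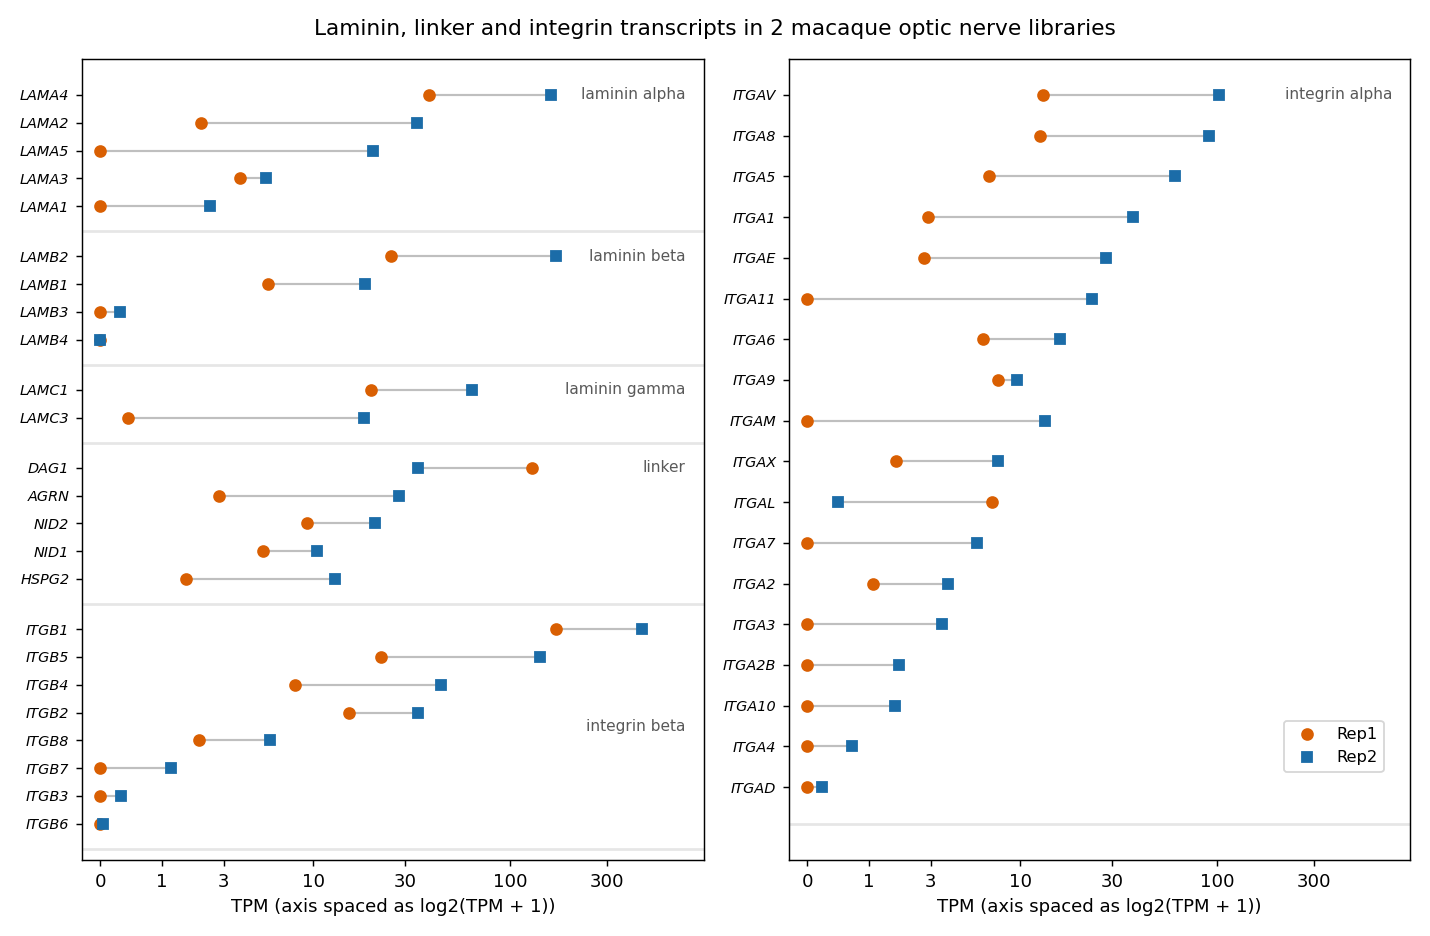
TPM of 42 of the 43 members in Rep1 (circles) and Rep2 (squares), grouped by class and ordered by mean, on an axis spaced as log2(TPM + 1), with a grey line joining the values of a gene. *ITGB1* has the highest value in both libraries, and *DAG1* and *ITGAL* are the members whose circle lies to the right of the square.

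*LAMA4*, the alpha chain of vessel and perineurial basement membranes, was at 39.7 TPM in Rep1 against 159 TPM in Rep2, a mean of 99.6 ± 84.7 TPM (SD, n = 2). It made up 87.0% of the laminin alpha TPM in Rep1 and 71.8% in Rep2, so the same chain led in each library while its share differed. *LAMA2*, the alpha chain of merosin, which is found in muscle, peripheral nerve and brain vessels, was at 2.09 TPM in Rep1 against 34.2 TPM in Rep2, a mean of 18.2 ± 22.7 TPM. *LAMA4* was therefore 19.0 times *LAMA2* in Rep1 and 4.66 times in Rep2. *LAMA5*, the alpha chain of mature vessels and of many epithelia, was listed at 0 in Rep1 but at 20.6 TPM in Rep2. Low levels were seen for *LAMA3*, an epithelial chain, at 3.82 and 5.42 TPM. *LAMA1*, a chain of embryonic basement membranes and of the inner limiting membrane of the retina, was listed at 0 in Rep1 and was at 2.42 TPM in Rep2. The order of the alpha chains was the same in both libraries for 7 of the 9 pairs that could be ordered, and *LAMA3* accounted for the remaining pairs, being above *LAMA2* and *LAMA5* in Rep1 only.

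Among beta chains, *LAMB2*, which is known from vessels, synapses and the inner limiting membrane, was at 25.5 TPM in Rep1 against 167 TPM in Rep2, a mean of 96.4 ± 100 TPM (SD, n = 2). *LAMB1*, the more widespread beta chain, was at 5.62 TPM in Rep1 against 18.6 TPM in Rep2, a mean of 12.1 ± 9.21 TPM. *LAMB2* thus exceeded *LAMB1* 4.53 times in Rep1 and 8.98 times in Rep2 and took 81.9% and 89.9% of the class. *LAMB3*, the beta chain of the epithelial laminin, was listed at 0 in Rep1 and reached 0.249 TPM in Rep2. All 5 beta-chain pairs that could be ordered stood in the same order in both libraries.

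*LAMC1*, the gamma chain shared by most trimers and the one that nidogen binds, was at 19.99 TPM in Rep1 against 65.0 TPM in Rep2, a mean of 42.5 ± 31.8 TPM (SD, n = 2). *LAMC3* was at 0.368 TPM in Rep1, from at least 1 read, against 18.4 TPM in Rep2, from at least 857 reads. *LAMC1* accordingly held 98.2% of the gamma-chain TPM in Rep1 and 77.2% in Rep2.

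A pair of beta chains lie next to each other in the genome and still differed in level. On chromosome 3 of Mmul_10, *LAMB1* (134232177 to 134319926, minus strand) and *LAMB4* (134344345 to 134453491, minus strand) are 24.4 kb apart, and *LAMB4* was the member listed at 0 in both libraries. The 250 bases before the annotated start of the chromosome 3 pair are shown because these neighbouring paralogs differed in whether any transcript was listed. They were read 5′ to 3′ on the minus strand from the Mmul_10 genome with RefSeq gene starts, with every CG dinucleotide in capitals, at chr3:134319927-134320176 for *LAMB1* and chr3:134453492-134453741 for *LAMB4*.
LAMB1: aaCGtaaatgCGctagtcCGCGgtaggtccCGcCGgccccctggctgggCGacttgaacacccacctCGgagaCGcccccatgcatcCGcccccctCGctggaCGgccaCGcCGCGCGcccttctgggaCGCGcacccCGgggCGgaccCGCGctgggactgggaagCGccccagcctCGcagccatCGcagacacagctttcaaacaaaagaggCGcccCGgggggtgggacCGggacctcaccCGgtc
LAMB4: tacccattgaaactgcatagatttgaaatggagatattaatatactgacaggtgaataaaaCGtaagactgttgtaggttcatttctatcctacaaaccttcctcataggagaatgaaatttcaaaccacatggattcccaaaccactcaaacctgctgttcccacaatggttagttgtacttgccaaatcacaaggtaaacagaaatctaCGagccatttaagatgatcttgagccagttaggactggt

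The *LAMB1* stretch holds 29 CG dinucleotides and is 72% G and C, and the *LAMB4* stretch holds 2 and is 38% G and C. CG reads the same on both strands, and the search allowed any number per stretch. At least 1 was found in all 43 members and in 96.9% of the 16679 listed genes with a complete stretch, and the median was 14 in each set. A rich stretch did not go with a high level throughout. *LAMB2* had 6, *LAMA4* had 7 and *DAG1* had 5, whereas *LAMA1* had 27 and *ITGA9* had 42. Other members went the other way, since *ITGB1*, the highest member, had 27 and *ITGB5* had 39. The low *ITGAD* and *ITGB6* had 2 each. Over the 43 members the Spearman rho between the number of CG and the mean TPM was 0.231, beside 0.324 over the 16679 listed genes, as a description of genes in the same libraries. An annotated start need not be the start used in the nerve.

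*DAG1* was the linker that was higher in Rep1 as deposited. It encodes dystroglycan, whose outer part carries a sugar chain that binds laminin, agrin and perlecan and whose inner part binds dystrophin. *DAG1* was at 128 TPM in Rep1, from at least 76 reads, against 34.7 TPM in Rep2, from at least 353, a mean of 81.6 ± 66.3 TPM (SD, n = 2). It was higher in Rep1 by 1.86 on the log2(TPM + 1) scale, and by 3.02 after scaling by the median of ratios, a correction that raised Rep1 by 1.19 (log2) against Rep2. Its level was 76.2% of that of *ITGB1* in Rep1 and 7.80% in Rep2. *DAG1* made up 87.2% of linker TPM in Rep1 and 32.4% in Rep2.

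The secreted linkers were lower in Rep1 as deposited. *AGRN*, agrin, was at 2.79 TPM in Rep1 against 27.9 TPM in Rep2, a mean of 15.3 ± 17.7 TPM. *HSPG2*, perlecan, the large heparan sulfate proteoglycan of vessel walls, was at 1.62 and 13.1 TPM, a mean of 7.35 ± 8.10 TPM. Agrin exceeded perlecan 1.73 times in Rep1 and 2.13 times in Rep2. *NID2*, nidogen-2, was at 9.27 TPM in Rep1 against 21.0 TPM in Rep2, and *NID1*, nidogen-1, was at 5.25 and 10.4 TPM. The ratio of *NID2* to *NID1* was 1.76 in Rep1 and 2.01 in Rep2, but the direction between the libraries was not stable for either nidogen, since after scaling they were higher in Rep1 by 0.01 and 0.18 (log2).

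**Figure D2:**
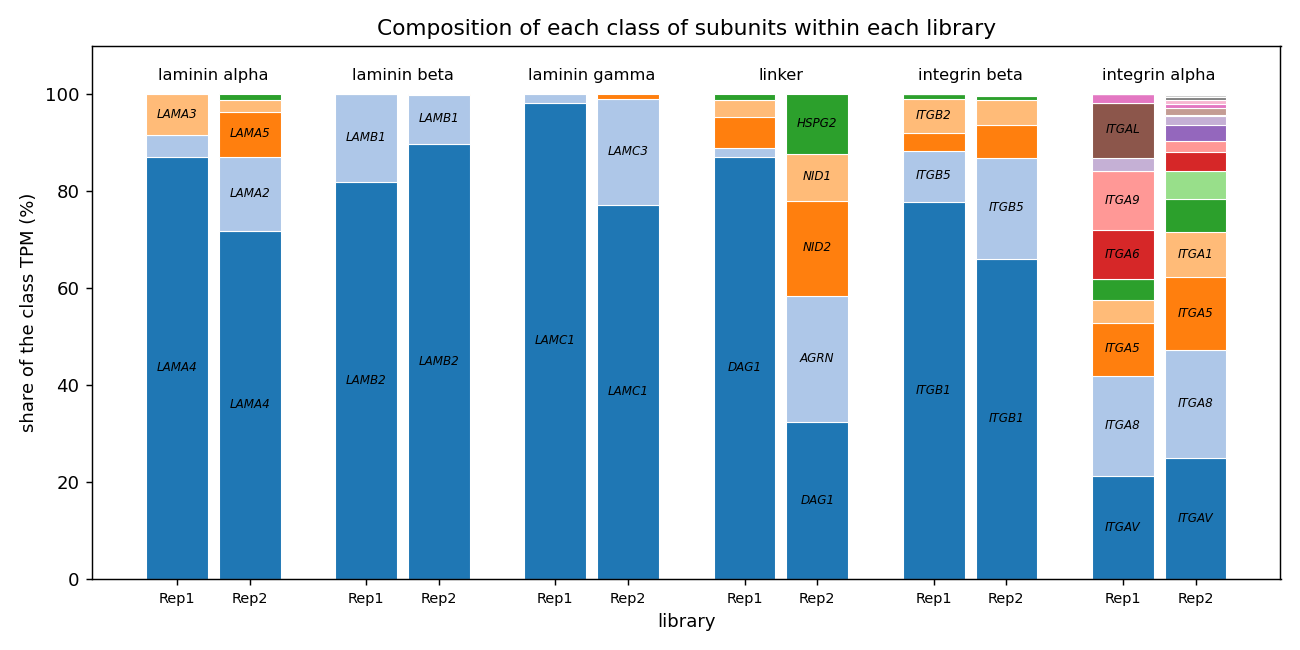
Share of the TPM of its class (%) taken by each member, in each library, for the 6 classes, with the member of highest mean at the bottom of each bar and names given from a share of 7%. *LAMA4*, *LAMB2*, *LAMC1* and *ITGB1* each take more than any other member of their class in both libraries, whereas *DAG1* goes from 87.2% of linker TPM in Rep1 to 32.4% in Rep2.

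*ITGB1*, the beta subunit that pairs with most alpha subunits, was at 168 TPM in Rep1 against 445 TPM in Rep2, a mean of 307 ± 196 TPM (SD, n = 2) and percentile 96.7. It took 77.9% of integrin beta TPM in Rep1 and 66.2% in Rep2. *ITGB5*, which with the subunit of *ITGAV* binds vitronectin, was at 22.5 and 140 TPM, a mean of 81.3 ± 83.1 TPM. It was the second beta subunit in each library. *ITGB4*, which with the subunit of *ITGA6* forms a laminin receptor of epithelia, Schwann cells and some vessels, was at 7.90 TPM in Rep1 against 45.4 TPM in Rep2. *ITGB2*, the beta subunit of leukocytes and microglia, was at 15.4 and 34.9 TPM. *ITGB4* and *ITGB2* were the only pair of beta subunits whose order differed between the libraries, while 24 of 25 pairs kept theirs. *ITGB8*, which with the subunit of *ITGAV* acts on latent TGF-beta, was at 2.02 and 5.78 TPM, or 8.97% and 4.13% of *ITGB5*. *ITGB3*, *ITGB6* and *ITGB7*, known from platelets and vessels, epithelia and lymphocytes, were listed at 0 in Rep1 and ran from 0.0298 to 1.21 TPM in Rep2.

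The highest alpha subunits were those that bind the RGD motif of fibronectin, vitronectin and related proteins. *ITGAV* was at 13.2 TPM in Rep1 against 102 TPM in Rep2, a mean of 57.6 ± 62.8 TPM (SD, n = 2). *ITGA8*, a nephronectin receptor of mesenchymal and smooth muscle cells, was at 12.8 and 91.1 TPM, and *ITGA5*, the classic fibronectin receptor, at 6.72 and 61.6 TPM. These genes held the top ranks among alpha subunits in Rep2, whereas in Rep1 *ITGA9* and *ITGAL* came between *ITGA8* and *ITGA5*. *ITGB5* stood close to its partner *ITGAV*, at 1.71 times its level in Rep1 and 1.37 times in Rep2. *ITGA2B*, the fibrinogen receptor of platelets, was listed at 0 in Rep1 and was at 1.81 TPM in Rep2. Of the platelet markers, *GP9* and *GP1BA* were listed at 0 in both libraries and *PPBP* was at 1.38 TPM in Rep1 against 0.482 TPM in Rep2.

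Alpha subunits that bind collagen were led by *ITGA1*, found on vessels and mesenchymal cells, at 2.89 TPM in Rep1 against 38.0 TPM in Rep2. *ITGA11*, a receptor for fibrillar collagen on fibroblasts, was listed at 0 in Rep1 and was at 23.6 TPM in Rep2, the highest Rep2 value of any member listed at 0 in Rep1. All 8 markers of meningeal fibroblasts were above 0 in Rep1, where 38.5% of all listed genes were at 0. Their sum was 1799 TPM in Rep1 against 16186 TPM in Rep2. All 8 (100%) were at least 2-fold lower in Rep1, beside 58.7% of all genes, and 7 (87.5%) after scaling, beside 40.2%. *ITGA2*, which lies 28.8 kb from *ITGA1* on chromosome 6, was at 1.10 and 3.86 TPM, and *ITGA10*, known from cartilage, was listed at 0 in Rep1 and was at 1.68 TPM in Rep2. The alpha subunits dedicated to laminin were led by *ITGA6* in both libraries. *ITGA6* was at 6.24 TPM in Rep1 against 16.1 TPM in Rep2, and *ITGA7* and *ITGA3* were listed at 0 in Rep1 and were at 5.77 and 3.54 TPM in Rep2. In Rep2 the 3 laminin-binding alpha subunits summed to 25.4 TPM, the 4 collagen-binding ones to 67.2 TPM and the 4 RGD-binding ones to 257 TPM. The corresponding sums in Rep1 were 6.24, 3.99 and 32.7 TPM, so the RGD-binding group led in both libraries and the laminin-binding and collagen-binding groups changed places.

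*ITGA9*, a receptor for tenascin-C, was at 7.52 TPM in Rep1 against 9.62 TPM in Rep2, a mean of 8.57 ± 1.49 TPM (SD, n = 2). Its related subunit *ITGA4*, which binds VCAM1 and fibronectin on leukocytes, was listed at 0 in Rep1 and was at 0.653 TPM in Rep2. The 12 alpha subunits that can pair with the product of *ITGB1* summed to 50.4 TPM in Rep1, or 29.9% of *ITGB1*, and to 358 TPM in Rep2, or 80.4%. Some of them also pair with other beta subunits, and transcript levels do not give the amounts of protein.

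Leukocyte integrins were present at low levels. *ITGAM*, CD11b, the complement receptor subunit used to mark microglia, was listed at 0 in Rep1 and was at 13.6 TPM in Rep2. *ITGAX*, CD11c, was at 1.72 TPM in Rep1, from at least 1 read, against 7.52 TPM in Rep2, from at least 75. *ITGAL*, the alpha subunit of LFA-1, was the second member higher in Rep1, at 6.95 TPM against 0.405 TPM in Rep2. The ratio of its values fits equal read numbers, so the bound was 1 read in each library, which can be far below the true number. *LAMC3*, with a longest transcript of 6076 bases against 5305 for *ITGAL*, rested on at least 1 read at only 0.368 TPM in Rep1. If the gene lengths used were as similar, more than 1 read per library lies behind *ITGAL*. *ITGAD* was listed at 0 in Rep1 and was at 0.173 TPM in Rep2. These 4 leukocyte genes, which lie within 1 region of chromosome 20 and encode partners of the *ITGB2* product, summed to 56.5% of *ITGB2* in Rep1 and 62.3% in Rep2. Different genes made up most of the sums, *ITGAL* with 6.95 of 8.68 TPM in Rep1 and *ITGAM* with 13.6 of 21.7 TPM in Rep2. All 9 microglia and macrophage markers were above 0 in both libraries, and their sums were 243 TPM in Rep1 against 606 TPM in Rep2. As deposited 8 of them were lower in Rep1, and 7 (77.8%) were at least 2-fold lower, beside 58.7% of all genes. Their median difference was -2.47, beside -1.52 over all genes. Only *AIF1* was higher, at 113 and 64.5 TPM. *CSF1R*, named after its values were seen, was at 61.3 and 62.2 TPM. After scaling by the median of ratios, 6 markers (66.7%) were at least 2-fold lower in Rep1 and 2 (22.2%) higher, beside 40.2% and 28.8% of all genes. Those 2 were *AIF1* and *CSF1R*, which thus went against most of the list. *ITGAE*, which marks T cells of epithelia, was at 27.8 TPM in Rep2, above each of the 4 chromosome 20 genes there, and was at 2.702 TPM in Rep1. Its partner *ITGB7* was among the genes listed at 0 in Rep1. The 7 markers of T cells and neutrophils were all listed at 0 in Rep1 and summed to 4.56 TPM in Rep2, with *CD3D* at 1.45 TPM and *CD3E* at 0. *ITGAE* overlaps *HASPIN* on the opposite strand, and the use of strand in the counting was not stated, so reads of either gene could be held by the other.

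Set against the spread between the libraries, members were mostly lower in Rep1. Of the 33 members whose mean reached 1 TPM, 28 (84.8%) were at least 2-fold lower in Rep1 on the log2(TPM + 1) scale, beside 58.7% of the 11754 genes at that level. Only *DAG1* and *ITGAL*, 6.06% of the 33, were at least 2-fold higher, beside 18.2% of all genes. The members within 2-fold were *ITGA9*, *LAMA3* and *NID1*. The 28 included 6 members listed at 0 in Rep1, for which no fold is given. Over the 27 members above 0 in both libraries the median difference (Rep1 minus Rep2) was -1.65, from -3.82 in *LAMC3* to 2.50 in *ITGAL*, beside -1.07 over the 9833 genes of that kind. Over all 33 it was -2.18, beside -1.52 over all 11754. After scaling by the median of ratios, 18 members (54.5%) were at least 2-fold lower and 2 (6.06%) higher, beside 40.2% and 28.8% of all genes, and 5 members changed sign, namely *LAMA3*, *ITGA9*, *ITGB2*, *NID1* and *NID2*. These counts describe a pair of libraries of the same condition, and the part of any retinal RNA or of the lower depth of Rep1 in them was not tested.

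**Figure D3:**
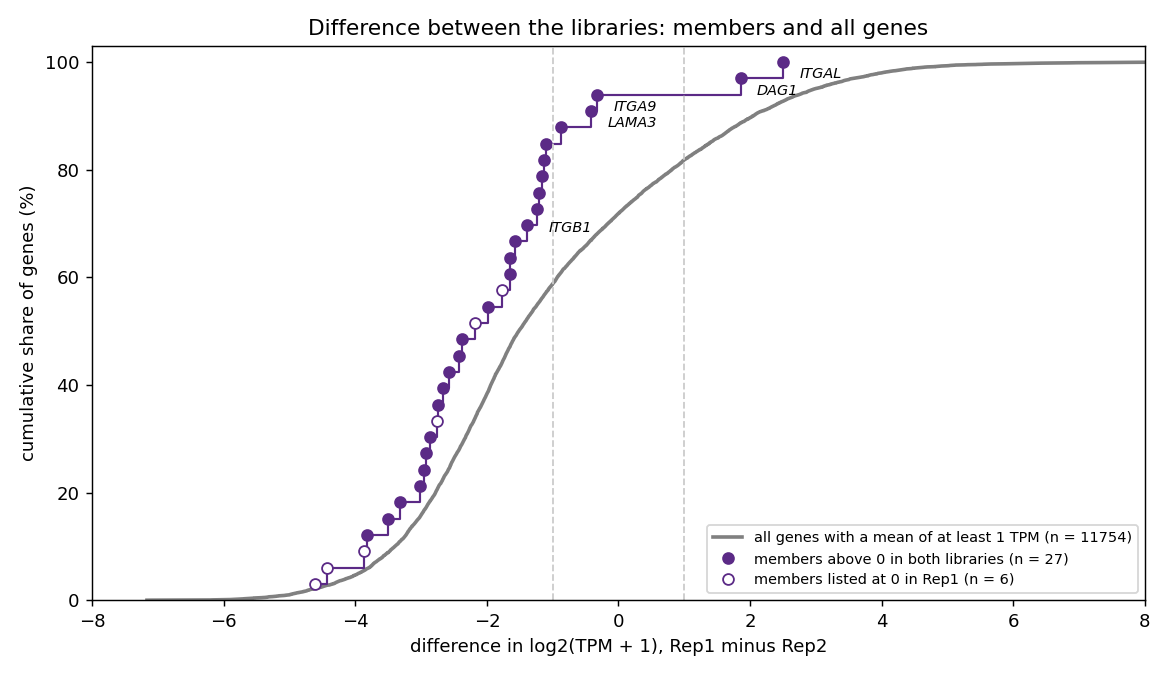
Cumulative share of genes (%) against the difference in log2(TPM + 1), Rep1 minus Rep2, for the 33 members whose mean reached 1 TPM (points, open where Rep1 is listed at 0) and for the 11754 genes at that level (grey line), with dashed lines at a 2-fold difference. The members lie to the left of the grey line over most of the range, with a median of -2.18 against -1.52, and *DAG1* and *ITGAL* are the points to the right of the upper dashed line.

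A value of 0 in Rep1 was frequent at low levels. Of the 43 members, 15 (34.9%) were listed at 0 in Rep1 and above 0 in Rep2, beside 26.6% of all 16684 listed genes. In Rep2 these 15 ranged from 0.0298 TPM in *ITGB6* to 23.6 TPM in *ITGA11*, with a median of 1.68 TPM. Only *ITGA11*, *LAMA5* and *ITGAM* were at 10 TPM or more there, 3 of the 24 members at that level (12.5%), beside 8.19% of the 7739 genes at that level. A listed 0 in a library of this depth does not show that the transcript was missing.

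The partners of dystroglycan inside the cell differed in direction between the libraries. *DMD*, which encodes dystrophin, the link from dystroglycan to actin, was at 884 TPM in Rep1 against 33.4 TPM in Rep2, higher in Rep1 by 4.69 on the log2(TPM + 1) scale. *SNTB2*, a syntrophin, was at 175 and 235 TPM, and *UTRN*, utrophin, the dystrophin relative of vessels and glia, was at 53.8 and 170 TPM. Of the 14 genes of the dystrophin complex whose mean reached 1 TPM, 10 (71.4%) were at least 2-fold lower in Rep1 and 2 (14.3%) at least 2-fold higher, beside 58.7% and 18.2% of all genes, with a median difference of -1.84 beside -1.52. The higher genes were *DMD* and *DTNB*, which encodes a dystrobrevin and was at 70.8 TPM in Rep1 against 24.2 TPM in Rep2. After scaling, 6 (42.9%) were lower and 2 (14.3%) higher, beside 40.2% and 28.8% of all genes. Dystroglycan needs a sugar chain built by a series of enzymes before it binds laminin. Of the 13 enzymes analysed of 18 in the list, 8 (61.5%, beside 58.7% of all genes) were at least 2-fold lower in Rep1 and *POMGNT1*, which adds a sugar to the mannose on dystroglycan, was at least 2-fold higher, at 136 TPM in Rep1 against 34.3 TPM in Rep2. The next highest of these enzymes by mean were *DPM3*, at 32.5 and 64.5 TPM, and *DPM2*, at 8.51 and 58.5 TPM, both part of the complex that makes the mannose donor. After scaling, 8 (61.5%) were lower and 2 (15.4%) higher, beside 40.2% and 28.8% of all genes, the second being *POMT2*, at 17.2 TPM in Rep1 against 8.60 TPM in Rep2. *DTNB* and *POMT2* were chosen after their values were seen.

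Dystroglycan and dystrophin are known from the synaptic terminals of photoreceptors as well as from the endfeet of glia. The values of *DAG1*, *DMD*, *DTNB* and *POMGNT1* were higher in Rep1, whereas most genes of the lists they come from were lower there. Of the 15 photoreceptor genes, 12 were higher in Rep1. Of the 14 whose mean reached 1 TPM, 9 (64.3%) were at least 2-fold higher, beside 18.2% of all genes, and 1 (7.14%) at least 2-fold lower, beside 58.7%. Their median difference was 3.81, beside -1.52 over all genes at that level. *GNAT1*, rod transducin, reached 2763 TPM in Rep1 against 1.56 TPM in Rep2, and *PDE6G*, a rod phosphodiesterase subunit, was at 514 and 0.172 TPM. *RBP3* was listed at 0 in Rep1, *ROM1* was lower there, and *SAG*, at 1.74 and 1.82 TPM, was higher in Rep1 only after scaling. The part of any retinal RNA in the level of *DAG1* was not tested.

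**Figure D4:**
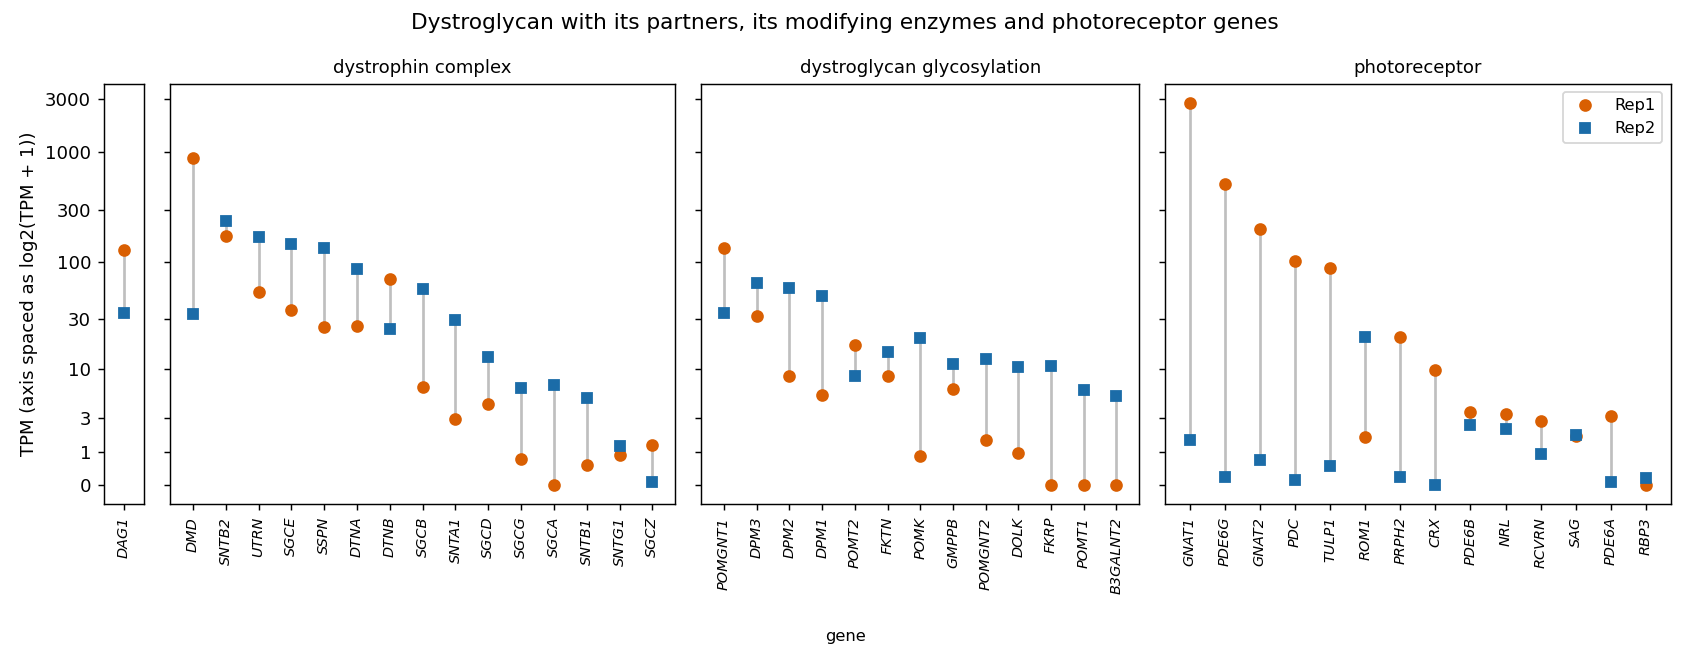
TPM in Rep1 (circles) and Rep2 (squares), on an axis spaced as log2(TPM + 1), of *DAG1*, 15 genes of the dystrophin complex, 13 enzymes of dystroglycan glycosylation and 14 of the 15 photoreceptor genes, each ordered by mean. *DAG1*, *DMD*, *DTNB*, *POMGNT1*, *POMT2* and the low *SGCZ* have the circle above the square, as do 11 of the photoreceptor genes plotted, and the gene not plotted was also higher in Rep1.

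Other components of basement membranes were read in the same way. *SPARC*, a collagen-binding matrix protein, was at 9319 TPM in Rep1 against 6872 TPM in Rep2 and was the gene of this list that was higher in Rep1. *FBLN1*, fibulin-1, was at 154 and 858 TPM, and *SMOC2*, a relative of *SPARC*, at 26.5 and 162 TPM. Of the 15 genes of the list whose mean reached 1 TPM, 12 (80%) were at least 2-fold lower in Rep1 and none higher, beside 58.7% and 18.2% of all genes, with a median of -2.47. After scaling 9 (60%) were lower and 1 higher, beside 40.2% and 28.8%. Among type IV collagen chains, named after their values were seen, *COL4A5* had the highest mean, at 21.4 TPM in Rep1 against 31.0 TPM in Rep2, and was higher in Rep1 after scaling by 0.63 (log2). *COL4A2* was at 3.38 and 48.0 TPM, *COL4A3* at 1.40 and 20.8 TPM and *COL4A1* at 4.40 and 11.2 TPM.

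Of the 17 integrin ligands outside the laminins whose mean reached 1 TPM, 16 (94.1%) were at least 2-fold lower in Rep1 and none higher, beside 58.7% and 18.2% of all genes, with a median of -2.47. After scaling 11 (64.7%) were lower and 1 higher, beside 40.2% and 28.8%. *SPP1*, osteopontin, a ligand of the *ITGAV* and *ITGA9* products, was at 94.7 TPM in Rep1 against 644 TPM in Rep2. *FN1*, fibronectin, was at 14.8 and 180 TPM, and *C3*, whose fragment binds the *ITGAM* product, was at 6.81 and 80.8 TPM. *TGFB1*, the member of this list that was higher in Rep1, was at 26.8 TPM in Rep1 against 24.5 TPM in Rep2. Of the 20 adaptors that act at integrin tails inside the cell and whose mean reached 1 TPM, 13 (65%) were at least 2-fold lower in Rep1 and 3 (15%) at least 2-fold higher, near the 58.7% and 18.2% of all genes, with a median of -2.18. After scaling 11 (55%) were lower and 4 (20%) higher, beside 40.2% and 28.8%. *ILK*, integrin-linked kinase, was at 411 TPM in Rep1 against 322 TPM in Rep2, *TLN1*, talin-1, at 183 and 303 TPM, and *PTK2*, focal adhesion kinase, at 267 and 111 TPM. The other higher genes were *TLN2*, at 201 and 44.7 TPM, and *PTK2B*, at 19.7 and 4.94 TPM, named after their values were seen. *ILK* joined the higher genes after scaling.

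The members are long transcripts. Their longest RefSeq transcript ran from 3076 bases in *ITGB2* to 15522 in *HSPG2*, with a median of 5865 bases beside 2950.5 for all listed genes. Over the 33 members whose mean reached 1 TPM, the Spearman rho between transcript length and the difference between the libraries was -0.114, beside 0.213 over all genes at that level. In the annotation, 10 members overlap another protein-coding gene, such as *ITGA1*, which holds *PELO* on the same strand, and members are paralogs of each other, so reads shared between such genes make these levels uncertain to that extent.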

How the data were processed

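Total RNA of 2 optic nerve samples was sequenced by the authors after amplification (SMARTer v4 Ultra Low Input). Trimming used Trim Galore 0.6.6, alignment to Mmul_10 used STAR 2.7.1a and counting per gene used featureCounts 1.5.3. The authors converted the counts to TPM and deposited 1 column per library. Gene lengths, strand and multiply aligned reads are not given in the sources used here. Column names do not tell which sample title is Rep1 or Rep2.

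Members were found by symbol. Means and SDs used TPM, and differences used log2(TPM + 1), which understates changes of low genes, for genes whose mean reached 1 TPM. No test was run. Whole reads behind a value are the smallest numbers whose ratio fits within 1e-12, after the value of a read was found, and fitted 99.9% of 10168 genes. On simulated data they were right for 99.8% of 12250 genes. The total depth is unknown, so no interval is given. Annotation and sequence came from RefSeq Mmul_10, the build the authors name. All symbols matched. Members whose mean reached 10 TPM were to be named with both values, the others where their class or partner is described, and in each list the 3 genes of highest mean. Some genes are counted but not reported here by name. Other list genes named were chosen after their values were seen. Members and lists were chosen with earlier results of these data known. Python 3.11, numpy 2.4.6, pandas 2.3.3, scipy 1.17.1 and matplotlib 3.10.9 were used.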

Additional observations from a re-analysis of the deposited data

How the results depend on the processing

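The count of members at least 2-fold lower in Rep1 was 28, with 22 to 31 at a pseudocount of 0.1, without a filter, at a mean of at least 5 TPM and without the 10 most abundant genes, but 18 with median-of-ratios scaling. The count higher was 2, but 1 at a mean of at least 5 TPM, where *ITGAL* drops out. The median difference was -1.38 after that scaling. Of the 15 members listed at 0 in Rep1 only, 6 had a mean of at least 1 TPM. Taken from a single library, the share of its class was 71.8% to 87.0% for *LAMA4*, 81.9% to 89.9% for *LAMB2*, 77.2% to 98.2% for *LAMC1*, 21.3% to 24.96% for *ITGAV*, 66.2% to 77.9% for *ITGB1* and 32.4% to 87.2% for *DAG1*, the lower end of *LAMB2* and *ITGAV* and the upper end of the others coming from Rep1. Mean TPM moved by over 1 SD only for *LAMA3* and *ITGA9*, without the 10 most abundant genes. Each of 2 libraries always lies within 1 SD of their mean, so single libraries say nothing about the stability of a mean. No paired analysis was possible because there is 1 condition. The depth of Rep1 limits low genes.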

Other observations

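Tetraspanins and CD47, membrane proteins that sit beside integrins, were led by *CD63*, *CD81* and *CD151* on the mean. *CD63* was at 192 TPM in Rep1 against 1326 TPM in Rep2, *CD81* at 85.8 and 714 TPM, and *CD151*, the partner of laminin-binding integrins, at 42.3 and 287 TPM. Each of these values was above that of the laminin-binding alpha subunits in the same library. All 6 genes of the list whose mean reached 1 TPM were at least 2-fold lower in Rep1, beside 58.7% of all genes at that level, with a median difference of -2.76 on the log2(TPM + 1) scale. After scaling by the median of ratios 5 were so, beside 40.2%. *CD9* was listed at 0 in Rep1 and was at 0.890 TPM in Rep2.

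Markers of Schwann cells, whose basement membrane is rich in the *LAMA2* chain and which hold the *ITGB4* receptor subunit, were lower in Rep1 as deposited in 5 of 5 genes. Of the 4 whose mean reached 1 TPM, 3 (75%) were at least 2-fold lower, beside 58.7% of all genes, and 2 (50%) after scaling, beside 40.2%. *NGFR*, at 2.15 and 2.90 TPM, was higher in Rep1 by 0.54 (log2) after scaling. *PMP22* was at 82.9 TPM in Rep1 against 1373 TPM in Rep2, and *SOX10*, which oligodendrocytes also express, was at 6.31 and 14.4 TPM, a difference that was 0.0031 (log2, Rep1 minus Rep2) after scaling. *PRX* was listed at 0 in Rep1 and was at 1.83 TPM in Rep2. Vessel markers were read in the same way. The 7 pericyte and smooth muscle genes summed to 220 TPM in Rep1 against 1188 TPM in Rep2. Of the 6 whose mean reached 1 TPM, 100% were at least 2-fold lower, beside 58.7% of all genes. After scaling 83.3% were lower, beside 40.2%. The 8 endothelial genes summed to 59.0 and 128 TPM. As deposited 6 of them were lower in Rep1, such as *PECAM1*, at 18.7 and 43.5 TPM, and *CLDN5*, at 8.38 and 26.1 TPM, whereas *KDR*, at 20.8 and 18.7 TPM, and *TEK*, at 6.10 and 1.36 TPM, were higher. Of the 7 endothelial genes whose mean reached 1 TPM, 57.1% were at least 2-fold lower and 14.3% higher. These shares were near the 58.7% and 18.2% of all genes. After scaling 28.6% were lower and 28.6% higher, beside 40.2% and 28.8% of all genes. The median difference of these 7 genes was -1.17 as deposited and -0.02 after scaling, beside -1.52 and -0.48 over all genes. *NGFR* and *TEK* were chosen after their values were seen.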
